A study of Homo sapiens with 18 samples.

Results

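Transcripts of 9 tight junction genes were followed in MDA-MB-231 cells, a cell line from a breast cancer that lacks hormone receptors and HER2. The genes were the claudins CLDN1, CLDN3, CLDN4, CLDN7, CLDN11 and CLDN12, the membrane protein occludin (OCLN), the scaffold protein ZO-1 (TJP1) and the junctional adhesion molecule JAM-A (F11R). They were picked by name, as 9 of the 62703 genes in the files, because the line is classed as claudin-low and because CLDN1 was already known to be higher in both knockdowns. The 2 comparisons with the control hairpin took part in that choice, so for these 9 genes they are given as levels and estimates with no test. The comparison of the knockdowns with each other and the comparison of the inhibitor with its solvent took no part in it and were tested, except that the first gives no test for CLDN1.

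Polyadenylated RNA was sequenced in 10 distinct libraries, 2 in each of 5 groups. In the knockdown experiment, cells were exposed to lentivirus for 24 h and kept in puromycin at 2 µg/ml for 72 h, with a hairpin aimed at EZH2 (shEZH2), at E2F1 (shE2F1) or at neither (control shRNA). In the drug experiment, cells received either the solvent DMSO or 1 µM GSK126, which blocks the EZH2 enzyme, for 72 h. EZH2 is the enzyme of the Polycomb complex PRC2 that marks histone H3 for silencing, and E2F1 turns on genes of the cell cycle. Each target was depleted with a single hairpin sequence, so that loss of the target and other effects of that hairpin cannot be told apart. The sources do not say whether replicates were separate cultures, and p-values then measure only the spread between these libraries.

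Tight junctions are belts at the top of the contact between epithelial cells, and they decide which ions and solutes pass between the cells. Claudins form the strands, occludin and JAM-A sit beside them in the membrane, and ZO-1 ties them to actin under the membrane. Claudin-low breast tumours are known for low levels of several claudins and of E-cadherin and for mesenchymal features. Repressors such as the ZEB and SNAI proteins bind E-boxes, short DNA motifs, near the starts of junction genes, and grainyhead factors are known activators of such genes.

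Library totals ran from 13198932 to 20055550 expected counts, and CPM are counts scaled to a common library size. A gene with 0 counts may, by counting error only, have a level of up to 0.150 CPM in the deepest library and 0.227 CPM in the shallowest. EZH2 stood at 153 and 181 CPM with control shRNA and at 52.6 and 44.8 CPM with shEZH2. E2F1 stood at 143 and 138 CPM with control shRNA, at 26 and 22.5 CPM with shE2F1, and also fell with shEZH2, to 62.4 and 32.3 CPM (edgeR adjusted p 0.000172). The 6 epithelial markers (CDH1, EPCAM, KRT8, KRT18, ESR1 and PGR) summed to 2080 to 2770 TPM (a level scaled for transcript length and library), mostly keratins, and PGR was at 0 in all 10 libraries. The summed level of 5 mesenchymal markers (VIM, ZEB1, CD44, FN1 and CDH2) was 1850 to 1990 TPM with shEZH2 and 3050 to 3560 TPM in the other groups, and its part in the results below was not tested. VIM set that sum, with a mean of 2780 TPM with control shRNA and 1270 TPM with shEZH2, while the means of the other 4 markers were higher with shEZH2 than with control shRNA (ZEB1 30 against 16.2 TPM, CD44 505 against 447 TPM, FN1 114 against 53.5 TPM and CDH2 0.78 against 0.155 TPM). The 4 markers of leukocytes and endothelium summed to 1.05 TPM or less, with CD3E at 0.

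The start of CLDN1 is shown because CLDN1 led to the choice of these genes, and E-box sites are shown because they are the binding motif of the repressors followed below. Sequences are those of RefSeq for GRCh38.p14, each 5′ to 3′ on the strand of the gene, and 8 of the 9 genes had an entry, F11R being the exception. The letters searched were CAGGTG and its reverse complement CACCTG for the E-box, AACCNGTT for grainyhead, and TTTCGCGC and TTTGGCGC for E2F, on both strands of the 250 bases before each listed start. Capitals mark E-boxes.
CLDN1, chr3:190322447-190322696, minus strand, with no match to any of these motifs: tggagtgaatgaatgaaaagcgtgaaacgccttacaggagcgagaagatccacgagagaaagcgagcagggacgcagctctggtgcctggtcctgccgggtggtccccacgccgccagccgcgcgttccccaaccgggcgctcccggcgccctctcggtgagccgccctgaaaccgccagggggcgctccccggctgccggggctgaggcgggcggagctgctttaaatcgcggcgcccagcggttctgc
CLDN7, chr17:7262637-7262662, minus strand: tcttcctcctCACCTGggcaaggagg
CLDN7, chr17:7262598-7262623, minus strand: acttccggttCAGGTGagtgtccctt
CLDN7, chr17:7262479-7262508, minus strand, the last 30 bases before the start: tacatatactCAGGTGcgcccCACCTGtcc
OCLN, chr5:69492504-69492529, plus strand: atccgagtttCAGGTGaattggtcac
OCLN, chr5:69492647-69492672, plus strand: taggacgcagCAGGTGggactcgcgg
TJP1, chr15:29969122-29969147, minus strand: ggccggcgcgCAGGTGgcccggcctc

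CLDN7 held 4 E-boxes in front of a start, OCLN held an E-box in front of each of its 2 starts, and TJP1 held an E-box in front of 1 of its 4 starts. Of 35116 listed windows of this length, 17.5% held an E-box and 0.122% held 4 or more. No E-box was in the windows of CLDN1, CLDN3, CLDN4, CLDN11 or CLDN12. No member window held the grainyhead or E2F letters, which occurred in 1.49% and 0.968% of all windows. A match is a description of these letters and says nothing of binding in these cells.

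Levels between genes were compared in TPM. With control shRNA, CLDN4 stood highest of the 9 genes, at 179 and 149 TPM. TJP1 at 33.8 and 31.8 TPM, CLDN12 at 34 and 30 TPM and CLDN7 at 37.6 and 20 TPM came next, and their libraries overlapped. F11R at 22.6 and 12.7 TPM overlapped with CLDN7 but not with OCLN, which was at 12.4 and 11.1 TPM. CLDN3 at 4.23 and 3.46 TPM, CLDN1 at 1.76 and 1.57 TPM and CLDN11 at 0.09 and 0.05 TPM closed the order without overlap. CLDN3, CLDN1 and CLDN11 were thus low beside CLDN4, which was at 132 TPM or more in every library. No other breast line or tumour is in these data, so how well the name claudin-low fits these genes was not tested. E-cadherin (CDH1), whose loss also marks claudin-low tumours, was between 0.26 and 4.5 TPM.

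CLDN4 also stood first in the other 4 groups. CLDN1 stood at place 8 of the 9 with control shRNA, at place 6 with shEZH2 and at place 4 with shE2F1, where it overlapped with CLDN12 and CLDN7. In the drug experiment CLDN7 stood next to CLDN4, at 58.1 and 72.8 TPM with DMSO and 55.5 and 55.9 TPM with GSK126.

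**Figure D1:**
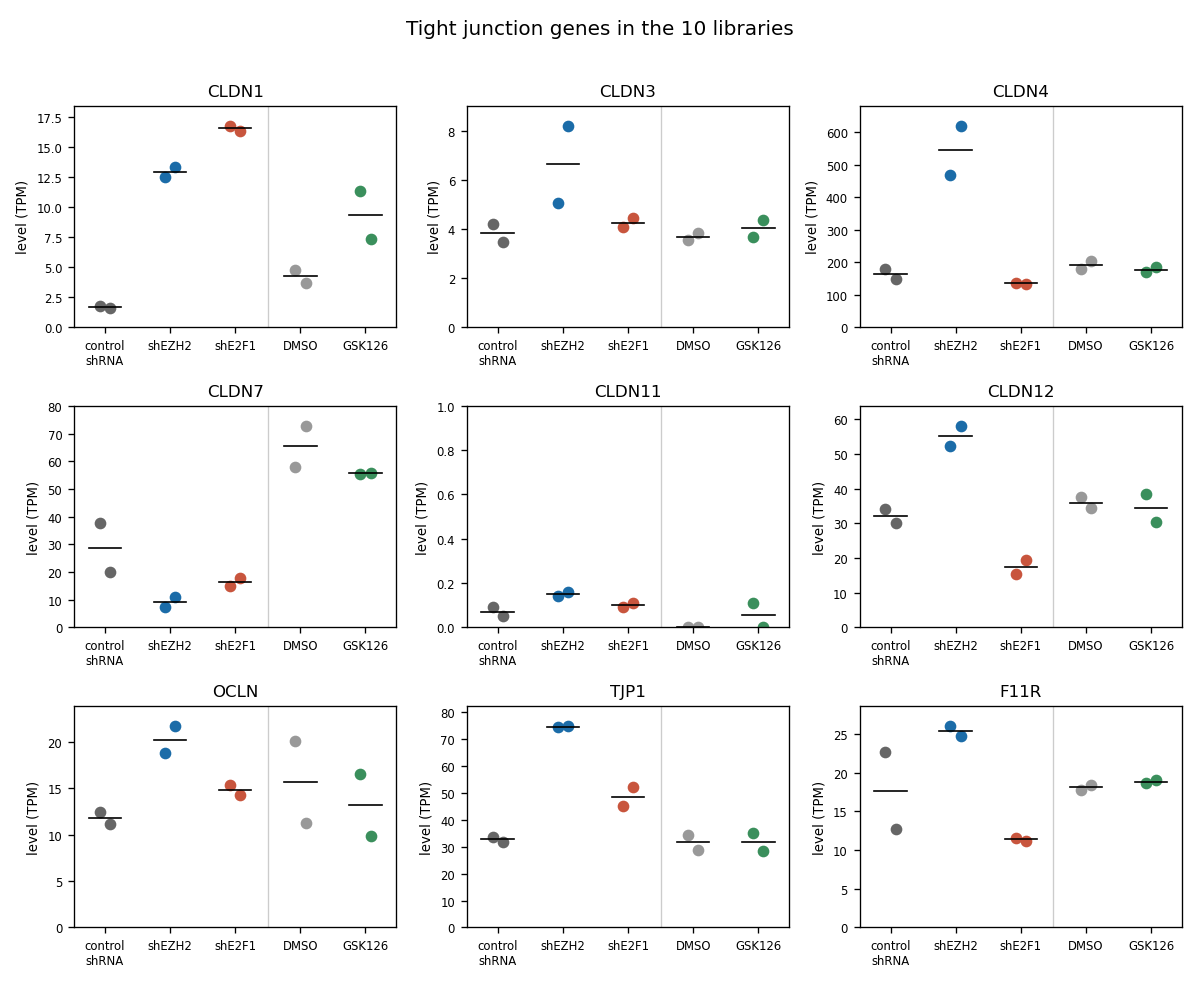
Level of the 9 tight junction genes (TPM, vertical axis, from 0, a separate scale for each gene) in the 10 libraries by group. Points are libraries, horizontal bars are means of 2 libraries, and the grey line parts the knockdown from the drug experiment. CLDN1 is at 1.76 TPM or less with control shRNA and at 12.5 TPM or more with each knockdown, and CLDN4 is at 469 and 619 TPM with shEZH2 and at 204 TPM or less elsewhere.

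CLDN1 (ENSG00000163347, GRCh38 chromosome 3, 190305707 to 190322446, minus strand) encodes a barrier-forming claudin. CLDN1 stood at 4.02 and 3.78 CPM with control shRNA, 25.3 and 28.2 CPM with shEZH2, and 35.2 and 33 CPM with shE2F1, where CPM are scaled by the trimmed mean of M-values (TMM). All 4 knockdown libraries were above both control libraries by a wide margin, and the libraries within a group lay close together. The estimate was 2.76 ± 0.15 (log2, SE), or 6.79-fold, for shEZH2 and 3.12 ± 0.14 (SE), or 8.66-fold, for shE2F1. These estimates share the control libraries. DMSO libraries stood at 9.67 and 7.85 CPM, above the control shRNA libraries, but belong to a separate experiment and were not tested against them. In bulk RNA, more cells with CLDN1 and more CLDN1 per cell cannot be told apart.

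CLDN4 (ENSG00000189143, chromosome 7, 73799542 to 73832690, plus strand) and CLDN3 (ENSG00000165215, chromosome 7, 73768997 to 73770270, minus strand) are neighbouring epithelial claudin genes. CLDN4 stood at 190 and 168 CPM with control shRNA, 446 and 608 CPM with shEZH2, and 133 and 125 CPM with shE2F1. The knockdowns thus lay on opposite sides of the control, at 1.54 ± 0.14 (log2, SE) for shEZH2 and -0.48 ± 0.14 (SE) for shE2F1. CLDN3, low on the TPM scale, was at 3.23 and 2.82 CPM with control shRNA, 3.46 and 5.81 CPM with shEZH2, and 2.87 and 3.02 CPM with shE2F1. Its estimate for shEZH2, 0.61 ± 0.29 (SE), was 0.20 without shEZH2 replicate 2 and 1.24 after GC and length correction, in which a trend on the GC content and length of the genes was fitted in each library and removed. For shE2F1 the CLDN3 estimate was -0.05 ± 0.30 (SE), and the libraries overlapped.

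CLDN7 (ENSG00000181885, chromosome 17, 7259903 to 7263983, minus strand), an epithelial claudin that binds EPCAM, was the only one of the 6 claudins among the 9 genes whose libraries all stood lower with each knockdown than with control shRNA. It was at 23.4 and 15.4 CPM with control shRNA, 4.89 and 7.19 CPM with shEZH2, and 9.82 and 11.7 CPM with shE2F1. The estimate was -1.68 ± 0.24 (log2, SE) for shEZH2, and ran from -1.98 to -1.25 over the alternatives. For shE2F1 it was -0.86 ± 0.22 (SE), and -0.53 without control shRNA replicate 1. The exons of CLDN7 overlap those of ELP5 on the opposite strand and of ENSG00000262302 on the same strand, and the strand setting of the counting is not stated, so part of its counts may be theirs.

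CLDN12 (ENSG00000157224, chromosome 7, 90383721 to 90513402, plus strand), a claudin linked to paracellular calcium flow, stood at 63 CPM in both control shRNA libraries. It was at 90.2 and 107 CPM with shEZH2 and at 22.3 and 29.5 CPM with shE2F1, again on opposite sides of the control. The estimates were 0.64 ± 0.13 (log2, SE) and -1.29 ± 0.14 (SE). Its exons overlap those of GTPBP10, CDK14 and PTTG1IP2 on the same strand, and 15.1% of its 50-base stretches occur in another gene.

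CLDN11 (ENSG00000013297, chromosome 3, 170418868 to 170454733, plus strand), known from myelin and from the testis, had 0 to 3 expected counts per library, at or below what a count of 0 allows. It was removed by the filter on low counts, so 8 of the 9 genes were estimated.

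OCLN (ENSG00000197822, chromosome 5, 69492292 to 69558104, plus strand) stood at 26 and 23.4 CPM with control shRNA, 32.2 and 44.4 CPM with shEZH2, and 34.5 and 27.3 CPM with shE2F1. The estimates were 0.62 ± 0.17 (log2, SE) and 0.32 ± 0.17 (SE), and the first was 0.29 after GC and length correction. Of its 50-base stretches, 6.09% occur in another gene, mainly the pseudogene OCLNP1.

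TJP1 (ENSG00000104067, chromosome 15, 29699367 to 29968915, minus strand) was measured at 121 and 127 CPM with control shRNA, 231 and 252 CPM with shEZH2, and 156 and 164 CPM with shE2F1. Each knockdown lay above the control, at 0.95 ± 0.09 (log2, SE) and 0.36 ± 0.09 (SE), and GC and length correction moved the first to 0.60. F11R (ENSG00000158769, chromosome 1, 160995211 to 161021343, minus strand) was measured at 46.1 and 35.6 CPM with control shRNA, 47.9 and 54.3 CPM with shEZH2, and 31.1 and 28.5 CPM with shE2F1. Its estimates were 0.31 ± 0.13 (SE) and -0.46 ± 0.14 (SE). The first was 0.14 without control shRNA replicate 2, and the second was -0.26 without control shRNA replicate 1. F11R shares 35.9% of its 50-base stretches, mainly with the same-strand gene ENSG00000270149.

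Against control shRNA, 7 of the 8 estimated genes were higher and 1 was lower with shEZH2, with a median of 0.63 (log2) beside -0.02 over all genes tested. With shE2F1, 3 were higher and 5 were lower, with a median of -0.26 beside 0.00. The values of 3 genes with shEZH2 (CLDN1, CLDN4 and CLDN7) and of 2 genes with shE2F1 (CLDN1 and CLDN12) lay past the call threshold, an adjusted p under 0.01 and a difference over 2-fold. Of all genes tested, 18.2% were called with shEZH2, 7.52% higher and 10.7% lower, and 11.6% with shE2F1, 5.6% higher and 5.96% lower. Nothing is read from these counts, because the genes were chosen on these comparisons.

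**Figure D2:**
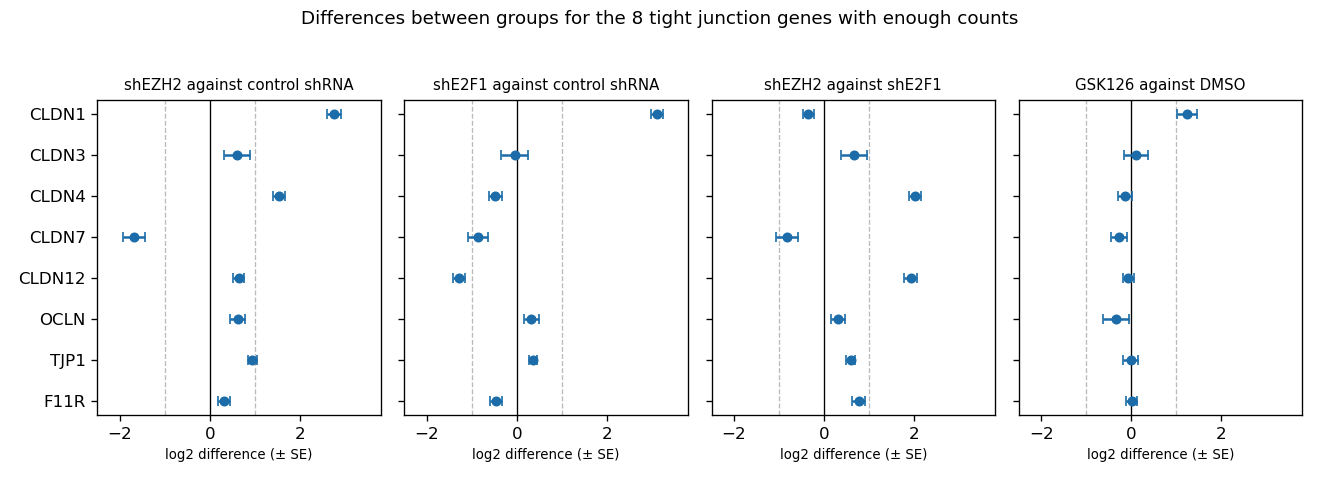
Difference between groups (log2, horizontal axis, first group minus second) with its SE for the 8 genes that passed the filter on low counts, in 4 comparisons. Dashed lines mark 2-fold. CLDN1 lies at 2.76 and 3.12 in the comparisons with control shRNA and at 1.25 with GSK126, while CLDN4 and CLDN12 lie at 2.02 and 1.93 in the direct comparison of the knockdowns.

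The direct comparison of shEZH2 with shE2F1 asked whether the junction genes differ between the 2 knockdowns. E2F1 was also low with shEZH2, at a mean of 47.3 CPM, beside 24.2 CPM with shE2F1 and 141 CPM with control shRNA. The comparison therefore does not set loss of EZH2 alone against loss of E2F1. It shares its libraries with both comparisons above. CLDN4 and CLDN12 were called, both higher with shEZH2, which is 2 of the 8 estimated genes. The 8 include CLDN1, which has no test here. Of all genes, 23.3% were called in this comparison, 10.4% higher and 12.9% lower. CLDN4 differed by 2.02 ± 0.14 (log2, SE), or 4.07-fold, with an edgeR adjusted p of 9.27e-07. CLDN12 differed by 1.93 ± 0.14 (SE), or 3.82-fold (edgeR adjusted p 1.25e-06). In each gene both shEZH2 libraries were above both shE2F1 libraries, and the difference stayed at 1.74 or more in every alternative fit.

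TJP1 and F11R also passed an adjusted p of 0.01 in the direct comparison but stayed under 2-fold. TJP1 was higher with shEZH2 by 0.59 ± 0.09 (log2, SE; edgeR adjusted p 0.000191), a difference that was 0.21 after GC and length correction. F11R was higher by 0.77 ± 0.14 (SE; edgeR adjusted p 0.000584). CLDN7 differed by -0.82 ± 0.25 (SE; edgeR adjusted p 0.0145), and by -0.37 after that correction. Without shEZH2 replicate 2 the CLDN7 value was -1.13, with an edgeR adjusted p of 0.00991, which passes the threshold.

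CLDN1 was chosen because it stood higher in both knockdowns, so its direct difference, -0.35 ± 0.12 (log2, SE), is a description with no test. Both shEZH2 libraries were below both shE2F1 libraries. CLDN3 differed by 0.66 ± 0.29 (SE; edgeR adjusted p 0.0702), and after GC and length correction by 1.43, with an edgeR adjusted p of 0.00174, which passes. OCLN differed by 0.31 ± 0.16 (SE; edgeR adjusted p 0.125) with overlapping libraries, and by -0.07 after the correction.

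GSK126 against DMSO asked whether blocking the enzyme, with EZH2 left in place, moves the same genes. CLDN1 stood at 9.67 and 7.85 CPM with DMSO and at 24.7 and 17.2 CPM with GSK126, and both treated libraries were above both solvent libraries. The difference was 1.25 ± 0.22 (log2, SE), or 2.38-fold, with an unadjusted p of 0.0011 and an edgeR adjusted p of 0.749, so CLDN1 was not called. With no covariate, edgeR called no gene in this comparison (0 of 14632, 0%), where 577 genes had an unadjusted p under 0.05, and DESeq2 called 10 genes. CLDN1 was among those 10, at the same 1.25, with a DESeq2 adjusted p of 0.00975.

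The call on CLDN1 under GSK126 turned on the fit and on single libraries, while the direction did not. Taken by replicate number, GSK126 stood 2.56-fold and 2.19-fold above DMSO. CLDN1 was called when the replicate number was a block, a fit that is given in the last section. Its difference was 1.43 without DMSO replicate 1 (edgeR adjusted p 2.97e-05) and 1.11 without DMSO replicate 2 (edgeR adjusted p 0.00395), and each of these passes the threshold, as does the fit without GSK126 replicate 2 (edgeR adjusted p 7.69e-08). Without GSK126 replicate 1 it was 0.97 and failed (edgeR adjusted p 0.0235). In these fits the lone library of a group is assumed to vary like the other group.

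The other 7 genes gave smaller differences under GSK126, from -0.34 ± 0.29 (log2, SE) for OCLN to 0.11 ± 0.27 (SE) for CLDN3, each with an edgeR adjusted p of 1. CLDN4 stood at 182 and 227 CPM with DMSO and 169 and 202 CPM with GSK126. CLDN7 stood at 39 and 53.8 CPM with DMSO and 35.1 and 41.7 CPM with GSK126. The libraries of the treated and solvent groups overlapped for all 7. The median of the 8 genes was -0.04 beside -0.005 over all genes tested.

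A fit of all 10 libraries gave the difference between the shEZH2 effect and the GSK126 effect, an estimate only, since the shEZH2 comparison took part in the choice of genes. It was 1.52 ± 0.27 (log2, SE) for CLDN1, 1.70 ± 0.22 (SE) for CLDN4 and -1.39 ± 0.33 (SE) for CLDN7. TJP1 stood at 0.97 ± 0.18 (SE), OCLN at 0.97 ± 0.34 (SE) and CLDN12 at 0.71 ± 0.20 (SE), with CLDN3 at 0.51 ± 0.41 (SE) and F11R at 0.31 ± 0.19 (SE). Lentivirus and selection belong to the knockdown experiment and are not described for the drug experiment, so what they add to these differences cannot be told apart.

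Over the 10 libraries, the genes whose pattern was most like that of CLDN1 were PTPRR, TNIK, THRB, FGD4 and SEMA3E. Likeness was the root mean square difference of centred log2(CPM + 1), taken among 11554 genes with a mean of at least 50 counts. It ran from 0.392 for PTPRR to 0.46 for SEMA3E, beside a median of 1.11 over all genes compared. PTPRR, a receptor-type tyrosine phosphatase, stood at 1.69 and 1.2 CPM with control shRNA, 7 and 6.1 CPM with shEZH2, 14 and 9.7 CPM with shE2F1, 3.56 and 2.99 CPM with DMSO, and 4.8 and 5.66 CPM with GSK126. TNIK, a kinase, was at 13.7 and 10 CPM with control shRNA, 65.7 and 65.1 CPM with shEZH2, 56.1 and 50.4 CPM with shE2F1, 18.7 and 14.7 CPM with DMSO, and 29.2 and 23.7 CPM with GSK126. THRB, a thyroid hormone receptor, stood at 5.4 and 2.82 CPM with control shRNA, 21.8 and 18.1 CPM with shEZH2, 16.7 and 15.7 CPM with shE2F1, 9.12 and 5.99 CPM with DMSO, and 12.2 and 9.54 CPM with GSK126. In these 3 genes the groups did not overlap, control shRNA was lowest and GSK126 lay between DMSO and the knockdowns. FGD4, an exchange factor for CDC42, and the semaphorin SEMA3E had the same order of group means for control shRNA, DMSO and GSK126, but groups overlapped. In FGD4 control shRNA (4.24 and 2.28 CPM) overlapped with DMSO (4.31 and 3.78 CPM). In SEMA3E shEZH2 (12 and 6.1 CPM) overlapped with GSK126 (8.55 and 7.19 CPM) and with shE2F1 (11.8 and 12.1 CPM). The measure was taken over libraries that share a group, and it is a description with no test.

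**Figure D3:**
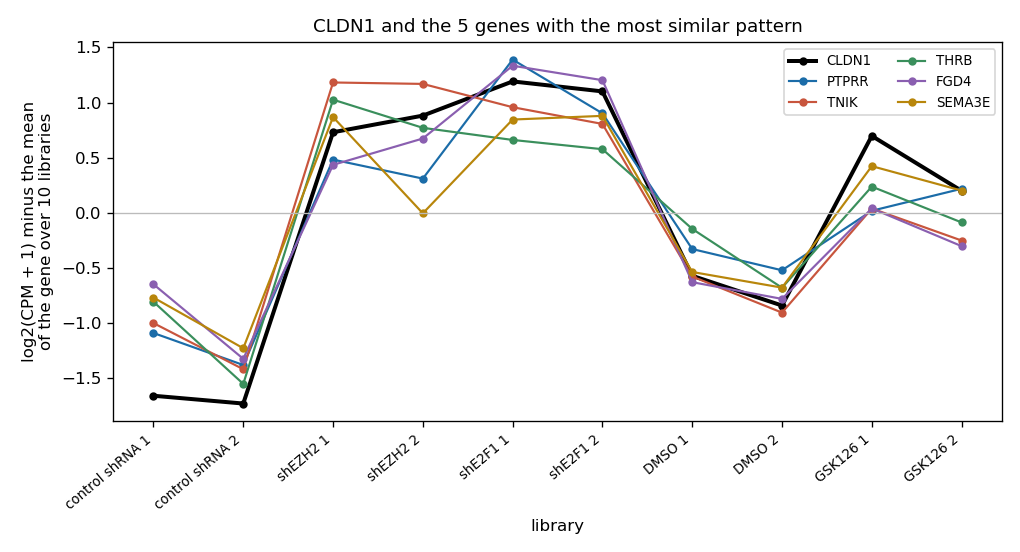
Pattern of CLDN1 (thick black line) and of the 5 genes most like it over the 10 libraries (horizontal axis). The vertical axis is log2(CPM + 1) minus the mean of the gene over the 10 libraries, and lines join the values of a gene only to guide the eye. The mean over the 2 control shRNA libraries is the lowest of the 5 groups in all 6 genes.

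The rest of the junction was read from 7 lists of 91 genes that are not among the 9, of which 63 passed the filter among the knockdown libraries and 61 among the drug libraries. With shEZH2, 12 of 63 were called (19%), 9 higher and 3 lower, beside 18.2% of all genes. With shE2F1, 9 of 63 were called (14.3%), 4 higher and 5 lower, beside 11.6%. In the direct comparison 18 of 63 were called (28.6%), 11 higher and 7 lower with shEZH2, beside 23.3%. With GSK126, edgeR and DESeq2 each called 0 of 61, with 3 at an unadjusted edgeR p under 0.05, beside 577 of 14632 over all genes. The shares lay near the background in each comparison, and the median over the listed genes was 0.13, 0.04, 0.22 and -0.03 (log2) in the same order, beside -0.02, 0.00, -0.02 and -0.005 over all genes tested. The 12 include CLDN2, CLDN6 and CDH1, the 9 include CDH1, and the 18 include CLDN2 and CLDN6. These passed the filter through groups where they were high, so these calls are no evidence of a difference. No share was computed without them. The comparisons of the knockdowns share libraries, so their counts are not independent. The same shares of all genes are the background for the counts of each list below, and differences between lists were not tested.

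Other claudins were mostly silent, and 5 of 18 passed the filter in the knockdown fit. CLDN2, which forms a cation pore in leaky epithelia, was called lower in both knockdowns. It stood at 9.8 and 6.72 CPM with control shRNA, 0.376 and 0.518 CPM with shEZH2, and 3.93 and 3.23 CPM with shE2F1. It fell by 4.18 on the log2 scale with shEZH2 (edgeR adjusted p 7.44e-06). The fall of 1.21 with shE2F1 (edgeR adjusted p 0.00336) was not called without control shRNA replicate 1 (-0.91), without shE2F1 replicate 1 (-1.36) or without shE2F1 replicate 2 (-1.08). The knockdowns also differed from each other in CLDN2, by -2.96 ± 0.38 (log2, SE; edgeR adjusted p 6.33e-05). CLDN2 passed the filter through the groups where it was high and not through shEZH2. Its calls that involve shEZH2 are therefore no evidence of a difference. CLDN6 has too few counts for the naming rule and is given because its values were seen. It had 26 and 50 expected counts with shEZH2 and 0 to 2 in the other libraries, so it passed the filter only through the group where it was high, and its call is no evidence of a difference. With a minimum mean of 50 counts, which leaves CLDN6 out, 11 listed genes were called with shEZH2, beside 2247 of 11849 over all genes. In the direct comparison 15 listed genes were called, beside 2829 of 11849, and CDH3 and PARD6G were lost along with CLDN6.

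Of 12 further membrane proteins of the junction, 6 passed the filter. With shEZH2 CXADR and ILDR2 were called, both higher (33.3%, beside 18.2% of all genes). With shE2F1, where edgeR called 11.6% of all genes, edgeR and DESeq2 called 0 of the 6. An unadjusted edgeR p under 0.05 was found for 3 of the 6, beside 8113 of 15373 over all genes. CXADR, an adhesion protein known as a virus receptor, stood at 1.54 and 2.28 CPM with control shRNA and at 20.1 and 24.6 CPM with shEZH2. It rose by 3.55 ± 0.23 (log2, SE; edgeR adjusted p 1.99e-06), and was at 3.54 and 2.96 CPM with shE2F1. The direct comparison gave 2.77 ± 0.21 (SE; edgeR adjusted p 1.92e-06). ILDR2, a protein of tricellular contacts, rose from 45.7 and 44.3 to 96 and 89.8 CPM with shEZH2, by 1.03 (edgeR adjusted p 1.31e-05), and it lost the call without shEZH2 replicate 1 (0.98) and after GC and length correction (0.58). In the direct comparison ILDR2 was called at 1.19, and not called after that correction, at 0.71.

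The plaque under the membrane is built of scaffolds and polarity proteins, and 26 of its 27 listed genes passed the filter. With shEZH2, 2 were called (7.69%, beside 18.2% of all genes). An unadjusted edgeR p under 0.05 was found for 20 of the 26, beside 9310 of 15373 over all genes. The median of the 26 was 0.32 (log2) with shEZH2 and 0.06 with shE2F1. MAGI1, a scaffold, rose from 58.3 and 45.6 CPM to 116 and 130 CPM, by 1.23 ± 0.12 (log2, SE; edgeR adjusted p 1.84e-05), and by 0.97 after GC and length correction, which is under 2-fold. RAB13, a small GTPase of junction traffic, fell from 78.7 and 84.9 CPM to 22.3 and 21.1 CPM, by 1.93 on the log2 scale (edgeR adjusted p 7.95e-07). With shE2F1, where edgeR called 11.6% of all genes, edgeR and DESeq2 called 0 of the 26. An unadjusted edgeR p under 0.05 was found for 15 of the 26, beside 8113 of 15373 over all genes. In the direct comparison 4 were called, RAB13 lower with shEZH2, at -1.53 (log2; edgeR adjusted p 8.18e-07) and the other 3 higher. AFDN, which links junctions to actin, stood at 215 and 243 CPM with shEZH2 and 86 and 92.6 CPM with shE2F1, a difference of 1.35 ± 0.10 (log2, SE; edgeR adjusted p 1.24e-06). Its control shRNA libraries were at 118 and 112 CPM. MAGI3, a scaffold, stood at 49.2 and 54.7 CPM with shEZH2 and 16 and 18.1 CPM with shE2F1, a difference of 1.60 ± 0.12 (SE; edgeR adjusted p 1.57e-06). Its control shRNA libraries were at 28.4 and 31 CPM. The remaining gene, PARD6G, has too few counts for the naming rule and was named after its values were seen.

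All 7 proteins that act with claudins at the membrane passed the filter. With shEZH2 1 was called (14.3%, beside 18.2% of all genes), and with shE2F1 3 were called (42.9%, beside 11.6% of all genes). The difference between these counts was not tested. EPCAM, which stabilises claudins, stood at 24.1 and 26.6 CPM with control shRNA, 27.8 and 27.2 CPM with shEZH2, and 11.2 and 10.4 CPM with shE2F1. Its fall of 1.24 on the log2 scale with shE2F1 had an edgeR adjusted p of 3.02e-05, and in the direct comparison it differed by 1.34 ± 0.13 (SE; edgeR adjusted p 7.88e-06).

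ST14, the membrane protease matriptase, was called higher in both knockdowns. It stood at 2.01 and 1.2 CPM with control shRNA, 8.51 and 8.86 CPM with shEZH2, and 5.12 and 3.83 CPM with shE2F1. It rose by 2.41 with shEZH2 (edgeR adjusted p 5.35e-05) and by 1.46 with shE2F1 (edgeR adjusted p 0.0023). The latter was not called without control shRNA replicate 2 (1.15) or without shE2F1 replicate 1 (1.23). SPINT1, an inhibitor of matriptase, was called lower with shEZH2 than with shE2F1, by -1.05 (edgeR adjusted p 0.00996), a call lost with DESeq2 (-1.04, DESeq2 adjusted p 0.0219), after GC and length correction (-0.71) and in 3 of the fits that left out a library. It stood at 4.82 and 3.36 CPM with control shRNA, 2.41 and 4.03 CPM with shEZH2, and 5.94 and 7.54 CPM with shE2F1.

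Of the adherens junction genes, 9 of 10 passed the filter and 2 were called in each comparison with control shRNA, all higher. This was 22.2% in each, beside 18.2% of all genes with shEZH2 and 11.6% with shE2F1. The 2 in each include CDH1, whose calls against control shRNA carry the limit given below. CDH3, called with shE2F1, has too few counts for the naming rule. CDH1, which encodes E-cadherin, was low with control shRNA, at 0.847 and 0.18 CPM, or 16 and 3 counts. CDH1 stood at 2.41 and 2.65 CPM with shEZH2 and at 9.82 and 6.41 CPM with shE2F1. The rise was 3.91 ± 0.45 (log2, SE; edgeR adjusted p 6.41e-05) with shE2F1 and 2.23 ± 0.50 (SE; edgeR adjusted p 0.00329) with shEZH2. CDH1 passed the filter through the knockdown libraries, where it was high, so its calls against control shRNA are no evidence of a difference. The call with shEZH2 was lost without control shRNA replicate 2 (1.56) or shEZH2 replicate 2 (2.17). In the direct comparison CDH1 differed by -1.68 (edgeR adjusted p 0.0025), and was not called without shEZH2 replicate 1 (-1.62), shEZH2 replicate 2 (-1.75) or shE2F1 replicate 1 (-1.34). NECTIN1, an adhesion protein, rose from 43.1 and 47.2 to 105 and 123 CPM with shEZH2, by 1.33 (edgeR adjusted p 4.91e-06).

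Among 10 activators of epithelial genes, 5 passed the filter, and GRHL2, a main grainyhead factor of epithelia, was at 0 in 9 libraries. GRHL1, its relative, rose from 0.741 and 1.2 CPM to 11.9 and 17.5 CPM with shEZH2, by 3.92 ± 0.32 (log2, SE; edgeR adjusted p 5.31e-06). In the direct comparison GRHL1 differed by 2.74 (edgeR adjusted p 1.21e-05). ESRP2, a splicing factor of epithelial cells, fell in both knockdowns, from 17.3 and 18.8 CPM to 5.42 and 4.95 CPM with shEZH2 and to 6.56 and 5.39 CPM with shE2F1. The falls were 1.82 on the log2 scale (edgeR adjusted p 1.59e-05) and, with shE2F1, 1.60 (edgeR adjusted p 3.79e-05).

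The zinc finger factors KLF5 and KLF4 are active in epithelia. KLF5 rose from 27.5 and 26.9 CPM to 55.6 and 56.1 CPM, by 1.02 with shEZH2 (edgeR adjusted p 4.06e-05), and by 0.93 after GC and length correction, which is under 2-fold. With shE2F1 KLF5 stood at 52.6 and 43.1 CPM, higher by 0.81 (edgeR adjusted p 0.000273), under 2-fold and so not called. Between the knockdowns KLF5 differed by 0.22 (edgeR adjusted p 0.122). KLF4 rose by 1.20 with shE2F1 (edgeR adjusted p 2.06e-05), from 50.3 and 56.2 to 129 and 117 CPM. Between the knockdowns KLF4 differed by -1.03 (edgeR adjusted p 2.48e-05), and by less than 2-fold without shEZH2 replicate 2 (-0.89), without shE2F1 replicate 1 (-0.96) and after the correction (-0.84). ELF3, a factor of epithelial differentiation, was at 1.43 and 1.09 CPM with shEZH2 and at 18.4 and 9.48 CPM with shE2F1, a difference of -3.49 ± 0.60 (log2, SE; edgeR adjusted p 0.000493). Its control shRNA libraries lay far apart, at 6.51 and 1.38 CPM.

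Of 7 repressors that bind E-boxes, 5 passed the filter. With shEZH2, where edgeR called 18.2% of all genes, edgeR and DESeq2 called 0 of these 5. An unadjusted edgeR p under 0.05 was found for 3 of the 5, beside 9310 of 15373 over all genes. With shE2F1 edgeR called SNAI2 alone (20%, beside 11.6% of all genes). SNAI2 stood at 30.4 and 21.4 CPM with shEZH2, at -0.94 ± 0.17 (log2, SE; edgeR adjusted p 0.000898) against control shRNA, which is under 2-fold, and it was called there after GC and length correction and without control shRNA replicate 2 or shEZH2 replicate 1. The direct comparison gave 0.22 ± 0.18 (SE; edgeR adjusted p 0.293) for SNAI2. With shE2F1 it fell from 54.9 and 42.8 CPM to 21.4 and 22.5 CPM, by 1.16 on the log2 scale (edgeR adjusted p 0.000316), and without control shRNA replicate 1 its difference was -0.97, under 2-fold. ZEB1 was higher with shEZH2, at 94 and 94.6 CPM, than with shE2F1, at 39.5 and 46.3 CPM, by 1.13 ± 0.11 (log2, SE; edgeR adjusted p 1.05e-05), and by 0.75 after GC and length correction. Control shRNA lay between them, at 57.2 and 66.4 CPM. TCF3, a widely expressed E-box binder, was higher with shEZH2 than with shE2F1 by 1.04 (edgeR adjusted p 7.77e-06), and by 0.97 without shE2F1 replicate 1. It stood at 136 and 123 CPM with control shRNA, 133 and 142 CPM with shEZH2, and 63.1 and 69.9 CPM with shE2F1.

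**Figure D4:**
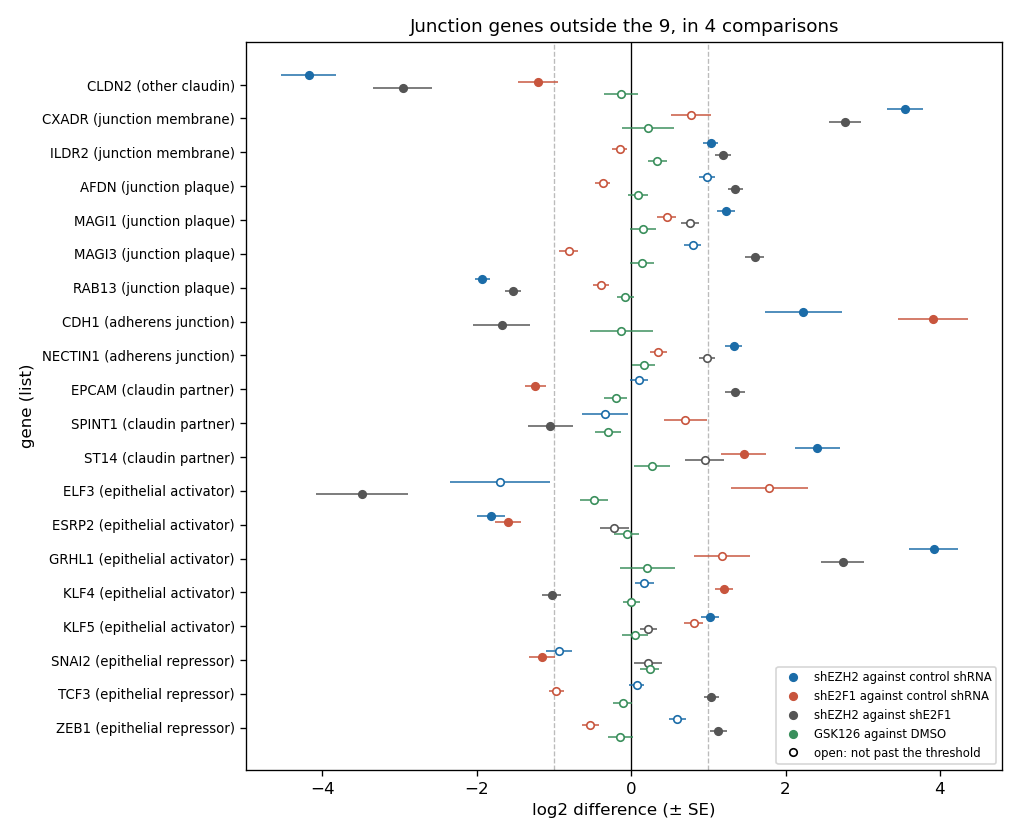
Difference between groups (log2, horizontal axis) with its SE for the junction genes outside the 9 whose differences are described in the text. Colours are the 4 comparisons, filled points passed the threshold and open points did not, and dashed lines mark 2-fold. CLDN2 lies at -4.18 and GRHL1 at 3.92 with shEZH2, CDH1 lies at 3.91 with shE2F1, and no GSK126 point is filled. Filled points of CLDN2 that involve shEZH2, and of CDH1 against control shRNA, are no evidence of a difference. Both genes passed the filter through the groups where they were high.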

How the data were processed

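RNA was extracted from MDA-MB-231 cells and sequenced after poly(A) selection with a directional library kit. The series lists 18 samples, of which 8 held the same values as another one, and the 10 distinct libraries entered once each. The authors mapped reads with STAR to hg38 with Ensembl 108 annotation and estimated abundance with RSEM. The submitters' processing notes name STAR 2.7.2b and RSEM 1.3.1, and the methods of the study name another STAR version. The deposited files hold RSEM expected counts, which divide reads that map to several genes, and TPM, scaled by the authors for length and library. The deposited signal columns (bounds of TPM), posterior deviations and effective lengths were read for checks only.

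Expected counts were rounded and tested with edgeR 4.0.16 in R 4.3.3 (filterByExpr, TMM, quasi-likelihood F-test), and p-values were adjusted across the whole table by the Benjamini-Hochberg method. A fit held the 6 knockdown libraries and another the 4 drug libraries, neither with a covariate. Calls needed an adjusted p below 0.01 and a change of over 2-fold. The SE is the log2 difference divided by the root of F. Names and coordinates are from GENCODE 44 (GRCh38), which held 62625 of the 62703 identifiers. The members and lists were chosen with earlier results of these data known. Beyond the members, at most 4 called genes per list and comparison were named, those with the largest difference among genes with a mean of at least 50 counts, as were the 5 genes most like CLDN1, and 1 listed gene that is counted is not reported here. Starts and their sequences are those of RefSeq (GRCh38.p14). The procedure was tested on simulated data. The alternatives were DESeq2 1.42.0, its size factors, other filters, other fits, a replicate block, a correction for GC content and length by splines with 5 degrees of freedom, another threshold, and leaving out each library.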

Additional observations from a re-analysis of the deposited data

Results flagged for a closer look

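Of the 9 genes, 2 had effects of the knockdowns against the same control that differed from each other by an adjusted p under 0.01 and over 2-fold. TJP1 and F11R passed the same p at less than 2-fold. For CLDN4 the shEZH2 effect minus the shE2F1 effect was 2.02 (log2), and for CLDN12 it was 1.93. Against control shRNA, CLDN4 stood at 1.54 with shEZH2 and -0.48 with shE2F1, and CLDN12 at 0.64 and -1.29. No group was large enough to look for a library far from the others, since each held 2.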

How the results depend on the processing

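The threshold was also set to 0.05 on the adjusted p, with none on the fold. Calls over all 15373 genes tested were then 8550 for shEZH2, 6879 for shE2F1 and 9267 for the direct comparison (beside 2803, 1777 and 3582). The junction list calls were 38, 35 and 41 (beside 12, 9 and 18). In the direct comparison 6 of the 8 estimated tight junction genes lay past this threshold (beside 2), as did 9267 of all 15373 genes. The 6 include CLDN1, for which that comparison gives no test, so its place among them is only a description. For GSK126, where edgeR called 0 genes, DESeq2 called 10, the replicate block 68 and the block with GC and length correction 53, and leaving out each replicate in turn gave 37 to 43, with 1 tight junction gene (CLDN1) called in the first 3 and 0 to 1 in the last.

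The replicate number was no covariate, because the labels do not say what it marks. Differences between replicates correlated between DMSO and GSK126 (r = 0.723 across 11919 genes, which are not independent) and between -0.101 and 0.191 for the other pairs of groups. With the replicate block the CLDN1 difference under GSK126 was again 1.25, with an edgeR adjusted p of 6.41e-11 (7.4e-08 with GC and length correction), on 1 residual degree of freedom. The block changed no call on the other 7 genes.

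OCLN turned from 0.31 to -0.07 in the direct comparison with GC and length correction, and to -0.06 with the block as well. Under GSK126, values near 0 turned when a library was left out, with ranges of -0.08 to 0.29 for CLDN3, -0.28 to 0.02 for CLDN4, -0.17 to 0.04 for CLDN12, -0.18 to 0.14 for TJP1 and -0.07 to 0.10 for F11R. The shEZH2 effect minus the GSK126 effect for CLDN1, whose alternatives were chosen after seeing the data, ran from 1.28 to 1.80 when a library was left out. Of 579 recomputed values of single genes, 518 kept their direction and call or moved by less than the spread between replicates. Depth limits CLDN11, at 0 to 3 counts.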
